A study of Drosophila melanogaster with 8 samples.

Results

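The tip of the Drosophila X chromosome, from 0 to 2 Mb, holds the Adar locus itself, and the genes around Adar were described here in fly heads with and without an active ADAR enzyme. The genes were chosen by position and level: their midpoint lies between 0 and 2 Mb on X, and their mean normalized read count over the 8 libraries is at least 10. Adar was set aside, as were genes whose symbols start with Cyp, Or, Obp, RpL, RpS, Vha, snoRNA: or lncRNA:. Of 200 genes of the deposited table in the interval, 16 were Adar or in these families and 45 others fell below a mean of 10, which left 139 genes of the 10347 tested in all. Among them, 134 are protein coding and 5 are pseudogenes or noncoding genes, with 73 on the plus strand and 66 on the minus strand. The filter on the mean passed 3 genes whose EA mean was under 10 (CR14798, Gr2a and CG32806) and 1 whose WT mean was under 10 (CG11382).

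ADAR converts adenosine to inosine in double-stranded RNA, and in flies a single Adar gene, expressed most in the nervous system, carries out this editing. A mutation of an X-linked gene brings with it the neighbouring stretch of the chromosome it was made on, because linked sequence is separated from the mutation only by recombination during backcrosses. The tip of X is gene rich and is known for classical loci of body colour and bristle pattern (yellow and scute) and for neuronal genes such as elav and Appl.

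RNA was measured by sequencing of ribosomal RNA-depleted head RNA from males aged 3 days and kept at 18 °C. The EA group (4 libraries) has the strain label y, sc, AdarE374A, that is, a point mutation made with CRISPR that leaves ADAR catalytically inactive, on a chromosome with yellow and scute mutations, backcrossed to white Canton-S. The WT group (4 libraries) is white Canton-S. The strains therefore differ inside the interval at yellow, scute and Adar, and effects of these alleles, of linked sequence and of lost editing cannot be told apart in this design. Nothing in the sources says whether the libraries of a group came from separate collections of flies, so the p-values measure only the spread between these libraries. In bulk heads, fewer cells of a type and less RNA per cell cannot be told apart.

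The EA libraries held 12517490 to 24342035 reads each and the WT libraries 9930607 to 19173154. On the first principal component over all tested genes (39.1% of variance), WT replicates 2 and 4 (-39.5 and -46.0) stood apart from WT replicates 1 and 3 (-1.41 and -7.51). The EA libraries were there at 11.0 to 35.7. For the genes that passed the test, and for their count, results are therefore also given without WT replicates 2 and 4. Other results below are not given that way. On the second component (24.8%), EA replicate 3 was at -41.2 and the other EA libraries at -0.17 to 17.2. The WT libraries were there at -21.8 to 28.8. Adar, a point mutant that still makes its transcript, was at 3534 to 6850 normalized counts in EA and 3523 to 4539 in WT (log2 fold change 0.28 ± 0.18 SE, limma adjusted p = 0.594). The white transcript, from a gene outside the interval, was at 134 to 189 in EA and at 0 to 3.97 in WT, although both strains are described as of white Canton-S background. The yellow transcript was near the floor in both groups, at 0.879 to 2.30 in EA and 0.692 to 6.62 in WT. Summed levels of eye markers were higher in every EA library (360029 to 427550) than in any WT library (253166 to 314977), as were those of head fat body markers (53832 to 104861 against 33378 to 45961) and midgut markers (216 to 1644 against 142 to 202). Those of neurons (61118 to 105371 against 55594 to 73065), glia (13619 to 18354 against 14460 to 15780) and muscle (100592 to 105068 against 82310 to 108285) overlapped, and the part of these differences in the results below was not tested. Testis and accessory gland markers summed to at most 13.2 in every library. Tested singly with limma, 3 of 7 eye, 0 of 4 head fat body and 1 of 3 midgut markers had an adjusted p under 0.05. Over all genes this share was 1.21%, and a sum can be set by a few abundant markers.

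Most genes at the tip of X had similar levels in both groups. Relative to WT, 3 of 139 genes (2.16%) passed the test in EA, beside 1.21% of all genes tested. CG14630 was higher, beside 0.657% of all genes, and DAAM and the pseudogene CR14798 were lower, beside 0.551%. The test was limma on log2 of the normalized count plus 1, with Benjamini-Hochberg adjustment over all 10347 genes and a threshold of 0.05. Of the 139 genes, 105 had a log2 fold change within 0.25 of 0, 9 (6.47%, beside 10.6% of all genes) reached 0.5 in size and 2 reached 1. An unadjusted limma p under 0.05 was found for 13 genes (9.35%, beside 12.7%), of which 10 (7.19%, beside 5.65%) were lower in EA. The edgeR quasi-likelihood test on recovered reads also called 3 of the 139, beside 1.22% of all genes.

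**Figure D1:**
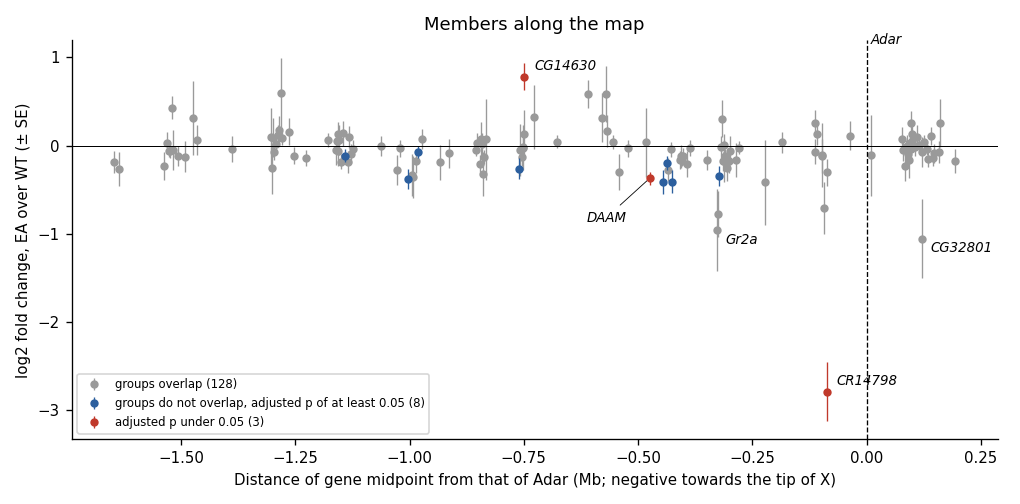
Log2 fold change of EA over WT (± SE) of the 139 genes against the distance of their midpoints from that of Adar in Mb, with genes coloured by whether the groups overlap and whether the limma adjusted p is under 0.05. The points lie close to 0 along the interval, and the 3 genes that passed the test (CG14630, DAAM and CR14798) are separate from each other on the map.

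The most strongly changed gene was CR14798, annotated as a pseudogene at X:1692824-1693843 on the plus strand of BDGP6.54. Its normalized counts were 13.7, 7.03, 5.47 and 4.02 in the EA libraries and 59.5, 48.9, 53.9 and 51.9 in the WT libraries. Every EA library lay below every WT library, and the lowest WT value was several times the highest EA value. The means were 7.57 ± 4.30 (SD, n = 4) in EA and 53.6 ± 4.47 (SD, n = 4) in WT. With an EA mean under 10, CR14798 passed the filter on the mean only through its WT level. Its EA values came from 12, 8, 5 and 7 reads. On the log2 scale EA was at -2.79 ± 0.33 (SE) relative to WT, with an adjusted p of 0.00539 in limma. With edgeR it was 0.00524, and the call held without each of the 8 libraries in turn (limma adjusted p 0.00170 to 0.0309). Without WT replicates 2 and 4 together the log2 fold change was -2.87 and the limma adjusted p was 0.105.

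CR14798 shares 25.5% of its exon bases with a6, a protein coding gene on the opposite strand, and the sources do not state whether the reads were counted by strand. The a6 gene had 236, 186, 166 and 164 in EA and 206, 265, 260 and 196 in WT, so its groups overlapped (log2 fold change -0.30 ± 0.15, limma adjusted p = 0.455). On the other side, b6 had 36.7, 18.5, 41.6 and 22.4 in EA and 56.9, 36.3, 59.3 and 38.8 in WT, which also overlapped (-0.71 ± 0.30, limma adjusted p = 0.354). CG32809, which ends nearer to CR14798 than b6 does and is more abundant, was at -0.12 ± 0.19 (limma adjusted p = 0.876), and its groups overlapped. These neighbours of CR14798 thus had negative values of unlike size that did not pass the test.

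DAAM, a formin of the Dishevelled-associated family that assembles actin filaments and takes part in axon growth, was lower in EA. The gene lies at X:1289713-1322362 on the minus strand. Its normalized counts were 1479, 1727, 1650 and 1573 in EA and 2064, 2059, 2060 and 2118 in WT. The groups did not overlap, and the WT libraries lay within a narrow band above all EA libraries. The means were 1607 ± 106 (SD, n = 4) and 2075 ± 28.9 (SD, n = 4), a log2 difference of -0.37 ± 0.07 (limma adjusted p = 0.0467). With edgeR the adjusted p was 0.0461. This call is close to the threshold. Leaving out EA replicate 2 or 3 kept it (limma adjusted p 0.0389 and 0.0478), whereas it was lost without EA replicate 1 (0.108), EA replicate 4 (0.153), or WT replicate 1 (0.0930), 2 (0.152), 3 (0.110) or 4 (0.101), with the log2 fold change between -0.41 and -0.33 throughout. It was also lost without WT replicates 2 and 4 together (limma adjusted p = 0.296) and when libraries were scaled by total reads (-0.28, limma adjusted p = 0.311).

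CG14630 was the only gene of the 139 that passed in the upward direction. It is predicted to encode an enzyme of the gamma-butyrobetaine dioxygenase family, which in animals acts in carnitine synthesis, and lies at X:1031496-1033165 on the plus strand. Its normalized counts were 137, 156, 176 and 192 in EA and 106, 104, 73.4 and 100.4 in WT. Each EA library was above each WT library. The means were 165 ± 23.5 (SD, n = 4) and 95.9 ± 15.2 (SD, n = 4), a log2 difference of 0.78 ± 0.15 (limma adjusted p = 0.0492, edgeR adjusted p = 0.0452). The call was lost without any one library: the limma adjusted p was 0.0739, 0.0616, 0.0836 and 0.153 without EA replicates 1 to 4 and 0.0704, 0.118, 0.0979 and 0.0966 without WT replicates 1 to 4, with the log2 fold change from 0.66 to 0.87. Without WT replicates 2 and 4 together it was 0.89 (limma adjusted p = 0.262).

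In the annotation, 96.6% of the exon bases of CG14630 also belong to Rpp21, a subunit of the RNA-processing enzyme RNase P, on the same strand. Reads from these overlapping genes are therefore uncertain in their assignment. Rpp21 had 44.7, 38.7, 25.2 and 38.4 normalized counts in EA and 38.4, 45.8, 31.3 and 20.8 in WT (log2 fold change 0.13 ± 0.28, limma adjusted p = 0.909), so its groups overlapped. Overlap of exons on either strand, down to a few bases, was common at the tip of X. In all, 75 of the 139 genes share exon bases with another annotated gene, and 9 share over 50% of them with 1 other gene. Many of the 75 overlap only with genes on the opposite strand, so most are unlike the case of CG14630. The neighbours CG42376 and cin, an enzyme of molybdenum cofactor synthesis, had almost the same values in each library (for example 494 and 500 in EA replicate 1, and 550 and 557 in WT replicate 1), although their exons do not overlap in this annotation.

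The groups did not overlap for 11 of the 139 genes (7.91%, beside 7.99% of all genes tested). In 10 of them every EA library was below every WT library (7.19%, beside 4.03%), and in 1, CG14630, above (beside 3.96%). Scaling decided how many: with TMM factors 9 genes were below and 2 above (beside 3.70% and 4.29% of all genes), and with scaling by total reads 3 were below and 3 above (beside 1.46% and 5.29%). The 8 genes without overlap that did not pass the test were all lower in EA and are described next by what they do.

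**Figure D2:**
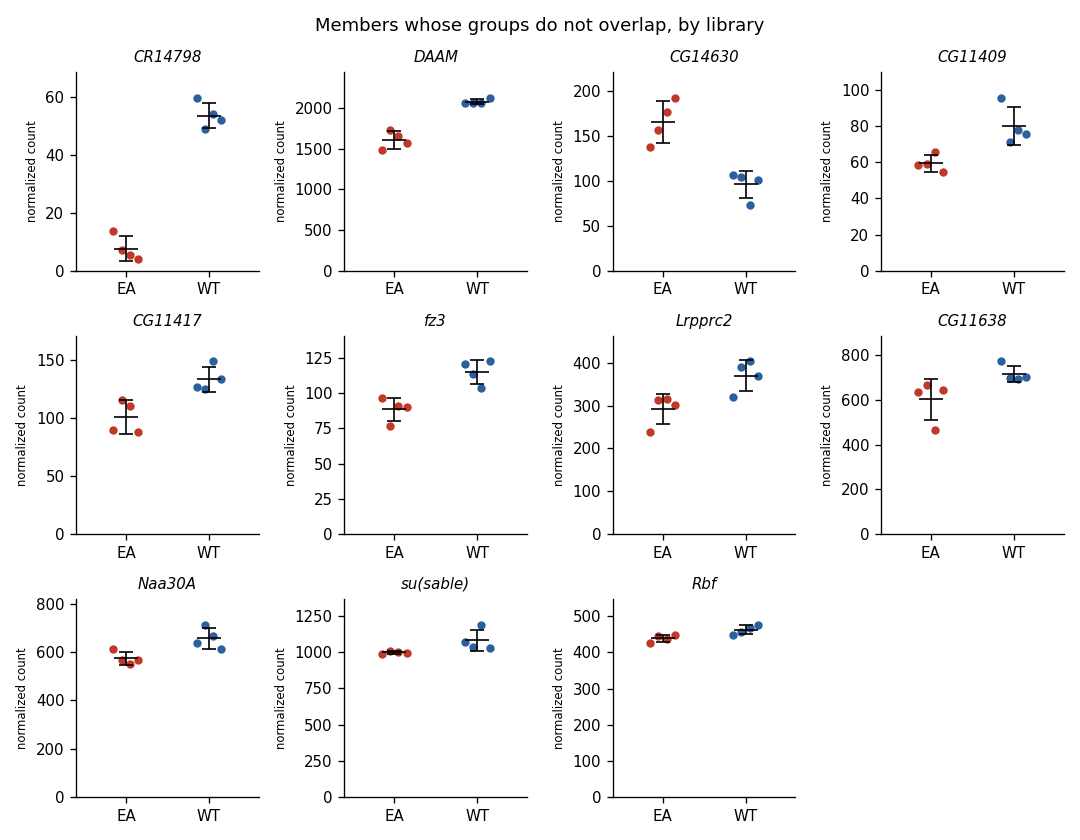
Normalized counts by library of the 11 genes whose groups do not overlap, each on its own axis from 0, with points for the 4 EA and 4 WT libraries and bars for mean ± SD. CR14798 fell from 53.6 to 7.57 on average, whereas the gaps of genes such as Rbf (439 and 463) were narrow beside their levels.

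Among signalling genes, fz3, a Frizzled-family receptor of the Wnt pathway, had 96.2, 76.5, 90.8 and 90.1 in EA and 120, 114, 104 and 122 in WT. The highest EA library lay under the lowest WT library (log2 fold change -0.38 ± 0.12, limma adjusted p = 0.185). CG11638, without overlap as well, had 635, 668, 465 and 644 in EA and 773, 699, 695 and 701 in WT (-0.26 ± 0.12, limma adjusted p = 0.398). One library in each group of CG11638 lay away from its other 3.

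Of the 11 measured genes of transcription, chromatin and RNA processing, su(sable) and Rbf had groups without overlap and the other 9 overlapped. The nuclear RNA-binding protein su(sable), which lowers the level of some aberrant transcripts, had 983, 1007, 1002 and 993 in EA and 1070, 1037, 1188 and 1026 in WT (-0.11 ± 0.07, limma adjusted p = 0.580). Rbf, the retinoblastoma-family repressor of E2F targets, had 427, 447, 436 and 448 in EA and 449, 458, 468 and 477 in WT (-0.07 ± 0.07, limma adjusted p = 0.739). In Rbf the highest EA value (447.5) and the lowest WT value (448.6) nearly touched.

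The remaining genes without overlap were Naa30A, the catalytic subunit of an N-terminal acetyltransferase, Lrpprc2, a relative of the mammalian mitochondrial RNA-binding protein LRPPRC, and CG11409 and CG11417. Naa30A had 612, 568, 550 and 567 in EA and 638, 714, 667 and 613 in WT (-0.19 ± 0.08, limma adjusted p = 0.328). Lrpprc2 had 239, 313, 315 and 301 in EA and 320, 390, 404 and 369 in WT (-0.35 ± 0.12, limma adjusted p = 0.229). In both genes EA and WT values nearly touched. CG11409 had 58.4, 58.9, 65.6 and 54.5 in EA and 95.3, 71.0, 77.7 and 75.4 in WT (-0.42 ± 0.14, limma adjusted p = 0.218). CG11417 had 89.4, 116, 110 and 87.8 in EA and 127, 125, 149 and 134 in WT (-0.41 ± 0.13, limma adjusted p = 0.193). These values were close to that of DAAM in size, but from lower counts and with a wider spread.

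The direction of the small differences was uneven. The log2 fold change was below 0 for 90 of the 139 genes (64.7%, beside 50.7% of all genes tested), with a median of -0.05 and quartiles of -0.17 and 0.06, beside a median of -0.0029 over all genes. With the same families left out, the share below 0 was 53.1% from 2 to 4 Mb, 56.6% on the rest of X and 51.0% on the autosomes. The medians there were -0.013, -0.022 and -0.0037. The median of the 139 ran from -0.068 to -0.043 when each library was left out. With scaling by total reads, 58 of the 139 genes were below 0 and their median was 0.036, while the median of all genes moved to 0.085. Relative to the median of all genes, 89 of the 139 were lower with the deposited size factors, with TMM and with total reads alike.

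The values varied along the interval. In 250 kb bins from the tip, the median log2 fold changes were -0.23 (3 genes), 0.024 (18), -0.019 (18), -0.11 (18), 0.047 (15), -0.17 (28), -0.088 (12) and -0.037 (27). The bin from 1250 to 1500 kb was picked after the values were seen, as the one with the lowest median among those with at least 10 genes. It had 25 of its 28 genes below 0 (89.3%), and 5 of them had every EA library below every WT library (17.9%, beside 4.03% of all genes). Over the genome, 397 bins held at least 10 tested genes, and their medians ran from -0.20 to 0.31, with the 5th and 95th percentiles at -0.092 and 0.099. Counting this bin itself, 4 of the 397 had a median as low and 2 had as high a share of genes below 0. Since the bin was picked for its low median, these ranks partly restate that choice and are no test.

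**Figure D3:**
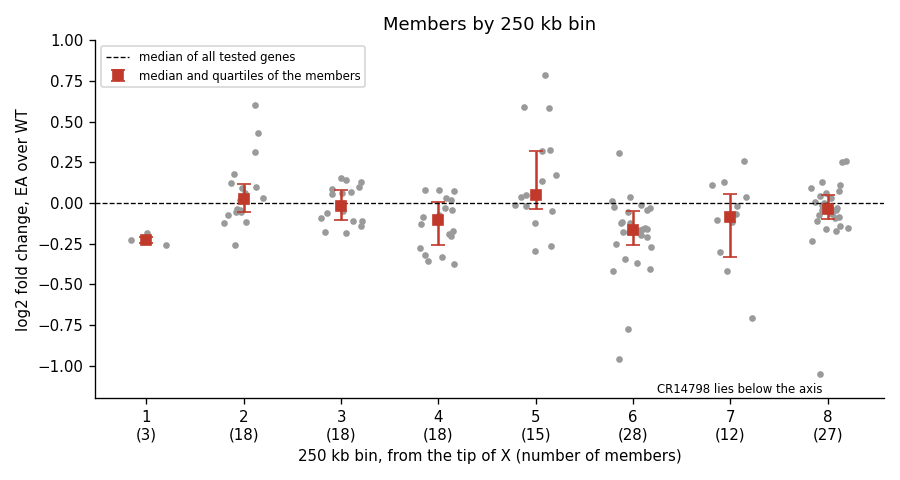
Log2 fold change of EA over WT in 8 bins of 250 kb from the tip of X, with grey points for genes, red squares and bars for the median and quartiles, and a dashed line for the median of all tested genes. The sixth bin has the lowest median of the bins with over 3 genes (-0.17), and CR14798 (-2.79, seventh bin) is below the axis.

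Within that bin, 17 neighbouring genes in map order, from DAAM to Ns3 (X:1289713-1464220), all had log2 fold changes below 0. This stretch was picked after the values were seen. Its median was -0.19, from -0.96 (Gr2a) to -0.01 (Ns3), and 1 gene, DAAM, passed the test. Over the 17 genes, the median difference of a library from the WT mean on the log2 scale was -0.28, -0.16, -0.27 and -0.21 in the EA libraries. The same median was -0.032, -0.011, 0.046 and -0.072 in the WT libraries. Since the 17 genes were picked for values below 0, the lower EA medians restate that choice. With scaling by total reads, 14 of the 17 were below 0 and none had groups that did not overlap in that direction, although all 17 stayed below the median of all genes.

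**Figure D4:**
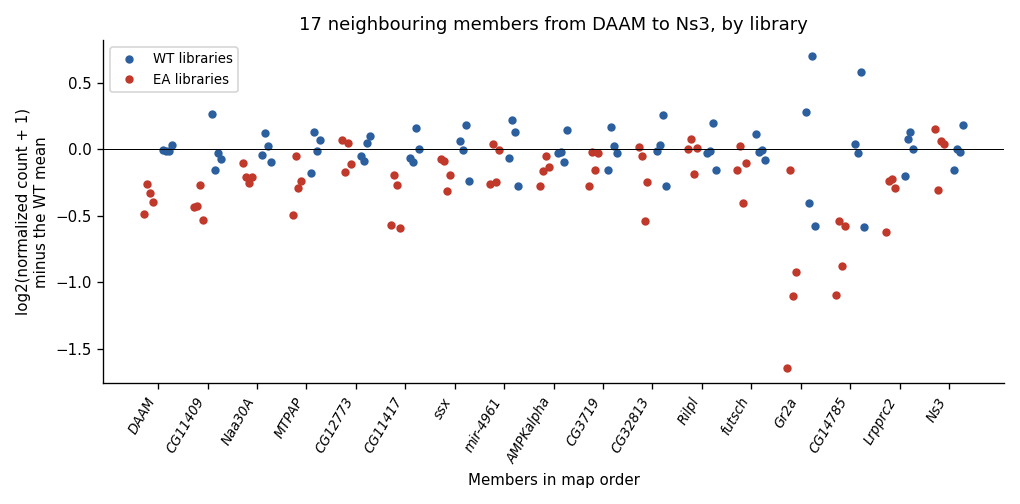
Log2(normalized count + 1) minus the WT mean of each gene for the 17 neighbouring genes from DAAM to Ns3, with red points for the 4 EA and blue points for the 4 WT libraries. EA points lie mostly under 0 along the stretch, widest apart at DAAM for their spread, and the scatter is broad at the low-count genes Gr2a and CG14785.

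Stretches of this length with a single sign were few. On X no other stretch of tested genes was as long, and the longest on 2L, 2R, 3L, 3R and 4 held 15, 14, 16, 24 and 17 genes. The 17 genes are not all separate measurements. On the same strand, mir-4961 shares 100% of its exon bases with ssx and Gr2a shares 75.9% with futsch, and both partners are in the stretch. Overlap within the other stretches was not examined. Across the 139 genes, the fold change of a gene and of the next on the map had a Pearson r of 0.32 and a Spearman rho of 0.25 (138 pairs), beside 0.13 and 0.11 over all tested genes (9946 pairs). These are correlations across genes, which share the same 8 libraries and, for overlapping genes, the same reads, and are not independent replicates.

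The genes of this stretch have unlike functions. AMPKalpha, the catalytic subunit of the energy-sensing AMP-activated kinase, had 1345, 1456, 1571 and 1487 in EA and 1598, 1607, 1526 and 1795 in WT (-0.16 ± 0.08, limma adjusted p = 0.475). MTPAP, the mitochondrial poly(A) polymerase, had 82.5, 113, 95.2 and 98.7 in EA and 103, 128, 115 and 122 in WT (-0.27 ± 0.13, limma adjusted p = 0.423). In both, 1 or more EA libraries reached into the range of WT. The Sex-lethal relative ssx (-0.17 ± 0.10) and the futsch gene described below (-0.16 ± 0.12) had values of like size. At the low end of the levels, CG14785 had 20.6, 30.8, 24.1 and 29.8 in EA and 46.3, 44.2, 68.0 and 29.8 in WT, overlapping through 1 WT library (-0.77 ± 0.26, limma adjusted p = 0.233). The gustatory receptor gene Gr2a had 3.44, 11.4, 5.47 and 6.31 in EA and 15.9, 9.47, 21.6 and 8.31 in WT, which overlapped (-0.96 ± 0.46, limma adjusted p = 0.437).

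Position relative to the loci that differ between the strains was compared next. From the tip to yellow lay 12 of the 139 genes. Of these, 0 passed in limma, edgeR or DESeq2, 1 (CG13377) had an unadjusted limma p under 0.05, and 0 had groups without overlap. These counts omit lncRNA:CR40469 (X:122493-122706), left out by its symbol, which lies in this segment and was higher in EA. Its log2 fold change was 5.81 ± 0.21 (limma adjusted p = 1.90e-06), and its groups did not overlap. From yellow to Adar lay 100 genes, which held all 3 of the 139 that passed (beside 1.21% of all genes) and all 11 without overlap (beside 7.99%). The left-out lncRNA:CR44779, lower in EA (-1.06 ± 0.21, limma adjusted p = 0.0499), also lies there. From Adar to 2 Mb lay 27 genes, again with 0 that passed in limma, edgeR or DESeq2 and 0 without overlap. At the shares over all genes, segments of 12 and 27 genes would hold few or none of either, so no pattern by segment is read from these counts. Beyond Adar, 1 gene had an unadjusted limma p under 0.05, CG32801, with 18.3, 4.39, 17.5 and 13.8 in EA and 22.5, 28.4, 41.0 and 17.3 in WT (-1.06 ± 0.45, limma adjusted p = 0.369). In the annotation 100% of the exon bases of CG32801 are shared with a noncoding gene on the opposite strand, so the assignment of its reads is uncertain. Across the 139 genes, the size of the log2 fold change and the distance from Adar had a Pearson r of -0.13 and a Spearman rho of 0.0027, a description across genes of the same libraries.

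The nearest genes on either side of Adar were Scgdelta, a sarcoglycan of the dystrophin-associated complex of muscle, and CG32806. Scgdelta had 692, 810, 489 and 671 in EA and 668, 584, 706 and 489 in WT (0.11 ± 0.16, limma adjusted p = 0.859). CG32806 had 12.6, 12.3, 5.47 and 9.18 in EA and 18.5, 11.1, 10.8 and 4.84 in WT (-0.11 ± 0.46, limma adjusted p = 0.961). The groups overlapped fully in both. Of the 10 genes nearest Adar, with midpoints 9.10 to 89.7 kb away, 1 passed the test, CR14798.

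By what the genes encode, the changes were few in each group. Of 17 listed genes of neural development and neuronal function, 8 were among the 139. Of these, 1 (DAAM) was lower, 0 were higher and 7 did not pass, with a median log2 fold change of -0.07. The pan-neuronal RNA-binding protein elav had 5829, 5047, 3563 and 4623 in EA and 4748, 4107, 4571 and 3532 in WT (0.16 ± 0.15, limma adjusted p = 0.766). The EA values of elav spanned those of WT. The cell adhesion protein sdk, the carboxypeptidase svr and the mucin-like Mur2B also had overlapping groups, at -0.00, 0.09 and 0.04. EA replicate 3 was the lowest EA library for elav and sdk.

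Of 20 listed genes of transcription, chromatin and RNA processing, 11 were among the 139. Of these, 0 passed in limma, edgeR or DESeq2, 0 had an unadjusted limma p under 0.05, and 9 were below 0 (median -0.09). Their log2 fold changes ran from -0.18 for Mybbp1A to 0.03 for MED22. The histone methyltransferase genes trr (1017, 1275, 1051 and 1194 in EA and 1063, 1082, 1303 and 1128 in WT, -0.01 ± 0.10) and Hmt4-20 (-0.09 ± 0.10) and the beta-catenin gene arm (4005, 4619, 4368 and 4474 in EA and 4270, 4516, 4051 and 4550 in WT, 0.01 ± 0.08) had nearly equal means. Another methyltransferase gene of the interval, G9a, was at 0.03 ± 0.12. The 7 measured genes of 11 listed for protein turnover and membrane traffic, such as the ubiquitin ligase parts SkpA (-0.03 ± 0.10) and Roc1a (0.10 ± 0.12) and the vacuolar sorting gene dor (-0.07 ± 0.14), also held 0 that passed in limma, edgeR or DESeq2 and 0 with an unadjusted limma p under 0.05, with a median of -0.0003. Of the cytoskeleton list, DAAM, futsch and arm were measured and DAAM alone passed. The immune caspase gene Dredd, of the Imd pathway, was at 0.14 ± 0.14 (limma adjusted p = 0.776).

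Per kb of exon, the most abundant of the 139 genes were Appl, mir-4961, futsch, sta and CG5273. Appl, the fly relative of the amyloid precursor protein, had 16581, 17436, 14307 and 16035 in EA and 18150, 17435, 17498 and 17678 in WT, which overlapped by less than 1 normalized count, at EA replicate 2 (-0.14 ± 0.09, limma adjusted p = 0.572). The microtubule-binding futsch, a relative of MAP1B that shapes synapses, had 45585, 51644, 38331 and 47133 in EA and 54778, 49922, 50497 and 47972 in WT (-0.16 ± 0.12, limma adjusted p = 0.646). In both, EA replicate 3 was lowest. The ribosomal protein gene sta had 2167, 2091, 3266 and 2301 in EA and 2060, 2875, 2291 and 2930 in WT, and CG5273 had 3050 to 3951 in EA and 3176 to 3854 in WT. The groups of sta and CG5273 overlapped, and the signs of their fold changes (-0.06 ± 0.16 and -0.03 ± 0.10) turned in some alternatives. The hairpin of mir-4961 (251, 309, 254 and 300 in EA and 287, 351, 330 and 248 in WT, -0.12 ± 0.13) lies with 100% of its bases inside an exon of ssx on the same strand, so its reads cannot be told apart from those of ssx and are no measure of the mature miRNA. Together the 139 genes took 0.966 to 1.23% of the reads of an EA library and 1.01 to 1.16% of a WT library.

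The genes with an unadjusted limma p under 0.05 that were higher in EA were CG14630 and, named after their values were seen, CG13377 and CG11378. CG13377 had 223, 182, 254 and 259 in EA and 172, 183, 146 and 175 in WT, overlapping at a single EA library (0.43 ± 0.13, limma adjusted p = 0.183). In the annotation 71.2% of its exon bases are shared with a noncoding gene on the opposite strand. CG11378 had 262, 223, 293 and 360 in EA and 164, 177, 179 and 233 in WT, overlapping at a single WT library (0.59 ± 0.16, limma adjusted p = 0.145). DESeq2 also called it (adjusted p = 0.0353), which brought its count to 4 of 139, beside 5.14% of all genes tested with DESeq2.

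The adjoining stretch from 2 to 4 Mb was compared as the most like region, as were the rest of X and the autosomes. For this comparison the same gene families were left out of every region. At the tip 2.16% of genes passed the test, beside 7.03% of 128 genes from 2 to 4 Mb, 1.65% of 1271 genes on the rest of X and 1.05% of 7904 autosomal genes. With the families and Adar kept in every region, these shares were 3.38% of 148 genes, 7.35% of 136, 1.64% of 1344 and 1.05% of 8324. Without the families, the groups did not overlap for 7.91% of genes at the tip, 22.7% from 2 to 4 Mb, 9.68% on the rest of X and 7.69% on the autosomes, and with them for 9.46%, 22.8%, 9.67% and 7.58%. By direction, without the families, EA was below WT for 10 of 139, 17 of 128, 72 of 1271 and 290 of 7904 genes (beside 4.03% of all genes). EA was above WT for 1, 12, 51 and 318 (beside 3.96%). A log2 fold change of at least 0.5 in size was found for 6.47%, 18.8%, 8.97% and 9.91% without the families. The interquartile ranges of the fold changes, without the families, were 0.233 at the tip and 0.323 from 2 to 4 Mb. On the rest of X and on the autosomes they were 0.225 and 0.244. These shares were not tested against each other, because genes of the same libraries are not replicates.

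**Figure D5:**
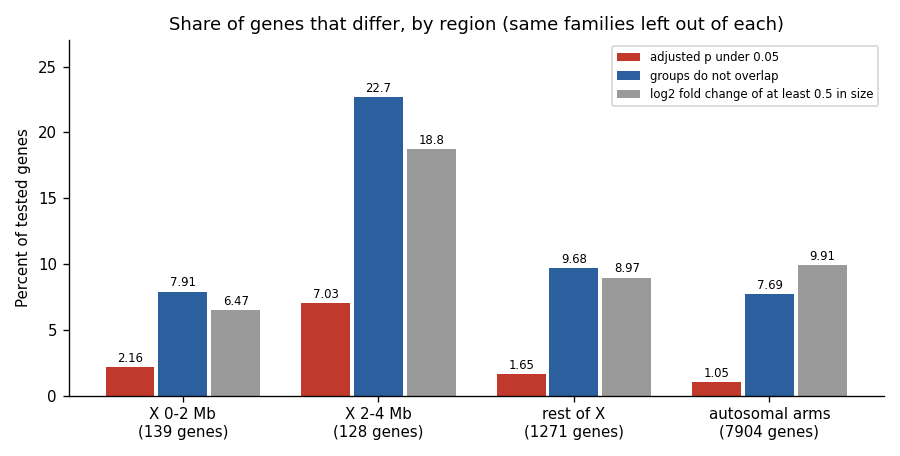
Percent of tested genes with a limma adjusted p under 0.05, with groups that do not overlap, and with a log2 fold change of at least 0.5 in size, for the 139 genes of X 0 to 2 Mb, 128 of X 2 to 4 Mb, 1271 on the rest of X and 7904 on the autosomal arms, with the same families left out of each. The bars of X 2 to 4 Mb are the highest on all 3 measures (7.03, 22.7 and 18.8%), and those of the tip are at 2.16, 7.91 and 6.47%.

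Just inside the edge at 2 Mb were CG3587 (0.26 ± 0.27) and Hr4, a nuclear receptor of the ecdysone response (-0.17 ± 0.13), and just outside were PIG-K (-0.24 ± 0.12) and east (-0.07 ± 0.11). At the limit on the mean, Gr2a (10.2) and CG32806 (10.6) were just inside, and CG13376 (9.91) and CG11380 (9.87) just outside.

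The families that the choice of genes set aside held 9 genes of the interval with a mean of at least 10, Adar included. The noncoding gene lncRNA:CR40469 lies at X:122493-122706, between the tip and yellow. It had 3332, 1718, 2236 and 1601 normalized counts in EA and 38.4, 33.2, 41.0 and 36.0 in WT (log2 fold change 5.81 ± 0.21, limma adjusted p = 1.90e-06). Its EA libraries were far above its WT libraries, more than for any of the 139 genes. In the other direction, lncRNA:CR44779 had 52.7, 67.7, 51.4 and 56.2 in EA and 114, 120, 175 and 83.7 in WT (-1.06 ± 0.21, limma adjusted p = 0.0499). With these families and Adar kept, 5 genes of 148 passed the test in place of 3 of 139.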

How the data were processed

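Heads of EA (n = 4) and WT (n = 4) males were profiled with the KAPA RNA-Seq kit and paired-end reads of 75 bp. The authors' deposited table gave 1 signal per gene and library, a read count divided by a DESeq2 size factor; columns of the authors' own fold changes and p-values were also held there and were not used. The submitters' processing notes name TopHat, featureCounts of Subread, DESeq2, dm3 and BDGP5, and the strand setting of counting is not given in the sources used here. In each library 100% of values were whole multiples of what 1 read is worth (tolerance 0.01), so reads were recovered. On these reads edgeR (4.0.16, quasi-likelihood, TMM) called 126 genes and 3 of the 139.

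Positions were taken from Ensembl release 115 (BDGP6.54) by FlyBase identifier (14023 of 14622 matched, 95.9%) and were not used to recompute counts. Log2(normalized count + 1) of genes with a mean of at least 10 was fitted with limma (3.58.1, R 4.3.3, eBayes with trend, two-sided, all 8 libraries, group only), on total reads of 9930607 to 24342035. Fold changes are on this scale, which understates changes of low genes. Alternatives changed the pseudocount, filter, scaling, test (DESeq2 1.42.0, edgeR), libraries, threshold, placement and families. The scripts were tested on simulated data.

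The genes and lists were chosen with earlier results of these data known. Genes were named if they passed the test, had groups without overlap at a mean of at least 50, were among the 5 highest per kb of exon, were role-list genes with an unadjusted p under 0.05, or lay next to Adar or an edge. Others were named after their values were seen, from the stretch of 17, the role lists or as neighbours. Promoter and protein sequences were not used here.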

Additional observations from a re-analysis of the deposited data

Results flagged for a closer look

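In 62 groups of 4 libraries of the named genes and of yellow, 5 had 1 library far from the other 3 by Dixon's test, which by chance flags about 1 group in 20. For CG14630, WT replicate 3 was at 73.4 normalized counts with the others at 100.4 to 106. DAAM in WT replicate 4 was at 2118, with the others at 2059 to 2064. CG11638 in EA replicate 3 was at 465 with the others at 635 to 668, and in WT replicate 1 at 773 with the others at 695 to 701. The yellow transcript in EA replicate 2 was at 0.879, which is 1 read, with the others at 2.19 to 2.30.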

How the results depend on the processing

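The count of genes that passed the test, 3 of 139, fell to 1 with limma without a trend, with no filter on low values and at a threshold of 0.01, to 0 of 115 with a mean of at least 50, and to 0 without WT replicates 2 and 4 together (in these limma fits the unadjusted p was under 0.05 for 9 and 17 of the genes). In that last fit 19 of all genes passed. It was 1 to 2 when each library was left out in turn, and 5 with the left-out families and Adar kept. It was 2 with a pseudocount of 0.5 and with total reads, 3 with a pseudocount of 4, TMM, edgeR, a threshold of 0.1 and both other placements, and 4 with DESeq2. The filter at a mean of at least 50 removed CR14798 (mean 30.6) rather than changing its call. In that fit DAAM and CG14630 had limma adjusted p of 0.0502 and 0.0535. With replicate number as a block 1 gene passed. The sources do not say that the numbers pair the samples. Correlations of same-numbered deviations were 0.19, -0.19, -0.23 and -0.12, which cannot settle whether they do. The median log2 fold change of the 139 genes, -0.05, was 0.036 with total reads and stayed between -0.068 and -0.043 with each library left out.

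Over all genes, 125 passed the test. This count was 26 with the replicate block and at a threshold of 0.01, 82 without a trend, 79 with a mean of at least 50 and 532 with DESeq2, and 55, 53, 36, 61 and 78 without EA replicate 1, EA replicate 4 and WT replicates 2, 3 and 4. Of 487 recomputed values of 26 named genes under 19 alternatives, 446 kept their direction and side of the threshold. Another 27 lost the call, 1 gained it, and 0 called values turned sign. The remaining 13 were uncalled values of Rbf, sta, CG5273, Scgdelta and CG32806 that changed sign. All 27 lost calls were of the 3 genes that passed. CG14630 kept its call in 5 of 19 alternatives, DAAM in 7 of 19 and CR14798 in 17 of 18. The other named genes had not passed, so most of the 446 values only stayed uncalled. The cause of the changes in call and sign was not tested. Low counts limit Gr2a, CG32806 and CG32801, for which differences within their wide standard errors were not detectable at this depth.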
